A study of Mus musculus with 768 samples.

Results

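Tight junctions seal the space between neighbouring epithelial cells, and 8 genes of that structure were followed here through single cells of the mouse mammary gland. The members were Cldn1, Cldn3, Cldn4, Cldn7 and Cldn8, which encode claudins, together with Ocln, which encodes occludin, and Tjp1 and Tjp3, which encode the scaffold proteins ZO-1 and ZO-3. They were taken by name from the count tables, 8 of 23997 gene names, and each was found in both tables.

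Claudins span the membrane and join in strands that line up between adjacent cells, and which claudins a cell makes sets which ions and small molecules can pass. Occludin lies in the same strands, and the ZO proteins tie claudin tails to actin beneath the membrane. In the mammary gland these junctions are known to be leaky during pregnancy and to close when milk secretion begins, so that milk components stay in the lumen.

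All animals were C57BL/6 mice carrying WAP-CRE, in which the promoter of the milk protein gene Wap drives Cre, so that the reporters mark cells in which that promoter is or has been active. Control mice (WAP-CRE; R26-tdTomato) carried the red reporter tdTomato at the Rosa26 locus, and the other mice (WAP-CRE; R26-N1ICD-EGFP) carried there the constitutively active intracellular domain of the receptor Notch1 with the green reporter EGFP. The labels mark both groups as homo. By the series text the glands were taken after 3 to 4 months of lactation, and the age of the mice is not given in the labels. Inguinal glands were dissociated, fluorescent cells were sorted singly into 384 wells per genotype, and each well became a Smart-Seq2 library, a full-length protocol without molecular identifiers. The labels name no animals, so each plate counts as 1 sample, plate and genotype cannot be told apart, and no difference below has a replicate check or a p-value.

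Wells with 50000 reads or more and 1000 genes or more counted as cells, which was 86.98% of the control wells and 73.7% of the N1ICD-EGFP wells. The median depth of these cells was 241888 and 348469 reads, and their median number of genes 3598 and 2482. Clusters were built on each plate without any junction gene and named from markers of other functions. A luminal progenitor/secretory-like class, with casein and Kit, Elf5 or Ltf reads, held 71.6% of control cells and 59.4% of N1ICD-EGFP cells. A hormone-sensing luminal-like class, with Prlr, Esr1, Pgr and Areg, held 64 and 7 cells, and immune-like clusters held 24 and 48 cells. On the control plate 7 cells were basal-like. On the N1ICD-EGFP plate 60 cells formed a cluster that stayed unnamed, because it had 7 raised progenitor markers but the basal keratin Krt14 among its 10 leading genes. Levels are CPM, the summed reads of a gene in a class scaled to a common total, and intervals are exact Poisson or Clopper-Pearson 95% intervals that cover counting error only.

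Cldn3 and Cldn4 are neighbours in the genome, and they behaved differently between the luminal classes, so their upstream sequences are shown side by side, with those of Tjp3, the member higher on the N1ICD-EGFP plate both over all cells and in progenitor/secretory-like cells, and Cldn1, the member with no read in hormone-sensing cells. Cldn4 lies at chr5:134945119-134946934 on the minus strand and Cldn3 at chr5:134986214-134987472 on the plus strand (GENCODE vM21, GRCm38), both with 1 exon. They are transcribed away from each other across 39279 bases with no other protein-coding gene between them. Tjp3 lies at chr10:81273207-81291581 and Cldn1 at chr16:26356642-26371841, both on the minus strand. Of the other members, Cldn7 lies at chr11:69964779-69967885 on the plus strand, and Cldn8 (chr16:88560828-88563183), Ocln (chr13:100496507-100552718) and Tjp1 (chr7:65296165-65527781) lie on the minus strand. The lines give the 250 bases before a RefSeq transcription start on GRCm38.p6, read 5′ to 3′ on the gene's own strand, with matches to the GC box GGGCGG and the E-box CACCTG on either strand in capitals. The windows are chr5:134946935-134947184 for Cldn4, chr5:134985964-134986213 for Cldn3, chr10:81291268-81291517 for the inner of 2 Tjp3 starts and chr16:26371840-26372089 for Cldn1.
Cldn4: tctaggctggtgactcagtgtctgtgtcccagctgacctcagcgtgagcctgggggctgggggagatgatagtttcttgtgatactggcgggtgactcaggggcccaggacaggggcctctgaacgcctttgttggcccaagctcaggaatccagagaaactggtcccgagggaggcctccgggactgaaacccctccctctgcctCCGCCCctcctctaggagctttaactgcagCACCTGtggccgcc
Cldn3: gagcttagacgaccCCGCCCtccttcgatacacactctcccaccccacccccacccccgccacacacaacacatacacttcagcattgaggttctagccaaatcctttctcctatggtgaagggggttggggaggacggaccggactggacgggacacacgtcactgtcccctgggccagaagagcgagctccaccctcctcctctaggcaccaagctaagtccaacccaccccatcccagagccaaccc
Tjp3: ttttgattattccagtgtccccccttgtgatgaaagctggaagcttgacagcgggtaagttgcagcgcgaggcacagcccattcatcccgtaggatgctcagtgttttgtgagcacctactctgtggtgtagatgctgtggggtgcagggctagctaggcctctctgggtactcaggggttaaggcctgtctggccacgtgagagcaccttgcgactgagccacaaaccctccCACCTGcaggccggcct
Cldn1: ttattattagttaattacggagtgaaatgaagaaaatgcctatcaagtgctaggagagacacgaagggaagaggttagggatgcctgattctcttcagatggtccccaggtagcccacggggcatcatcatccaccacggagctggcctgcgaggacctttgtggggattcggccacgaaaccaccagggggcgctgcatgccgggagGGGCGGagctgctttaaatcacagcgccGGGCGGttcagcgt
The GC box, a site type bound by Sp1 family factors, was found 44 bases before the Cldn4 start, near the far end of the Cldn3 window, and 42 and 14 bases before the Cldn1 start. The E-box, a site type bound by the repressors Snai1, Snai2 and Zeb1, was found 14 bases before the Cldn4 start and 17 before the Tjp3 start. Over all 32851 promoter windows of the same length, 32.7% held GGGCGG and 17.2% held CACCTG. The letters TGGGAA, the core read by the Notch partner RBPJ, were found in 1 of the 10 windows of 7 members, that of the inner Cldn7 start, and in 21.6% of all windows. The grainyhead-like letters AACCGGTT were in no member window and in 0.116% of all. These matches describe the letters only, and none of the motifs overlapped another.

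Reads of the members lay mainly in the luminal classes and the unnamed cluster, and for Tjp1 also in basal-like cells. In the immune-like cells of the N1ICD-EGFP plate the 8 members summed to 10.4 CPM, of which 1 cell held 81.9%, and without it to 1.91 CPM. The 24 immune-like control cells summed to 135.1 CPM, of which 1 cell with reads of all 8 genes held 51.8%, and without it to 67.8 CPM. In progenitor/secretory-like cells the sum was 1674 CPM on the control and 1971 CPM on the N1ICD-EGFP plate. Basal-like cells differed in their make-up, since Tjp1 reached 146.2 CPM there (interval 129.9 to 163.9) while Cldn4, Cldn7, Cldn8 and Ocln had no read, each below 1.5 CPM, the level of 3 reads over the 7 cells. ZO-1, the product of Tjp1, is known to bind adherens junctions too. The share of immune-like cells with a Cldn3 read, after thinning each cell to 50000 reads, was 29.2% on the control plate (median depth 207726.5 reads) and 2.08% on the N1ICD-EGFP plate (339930 reads), against 96.2% and 88.7% of progenitor/secretory-like cells (212757 and 350463.5 reads).

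**Figure D1:**
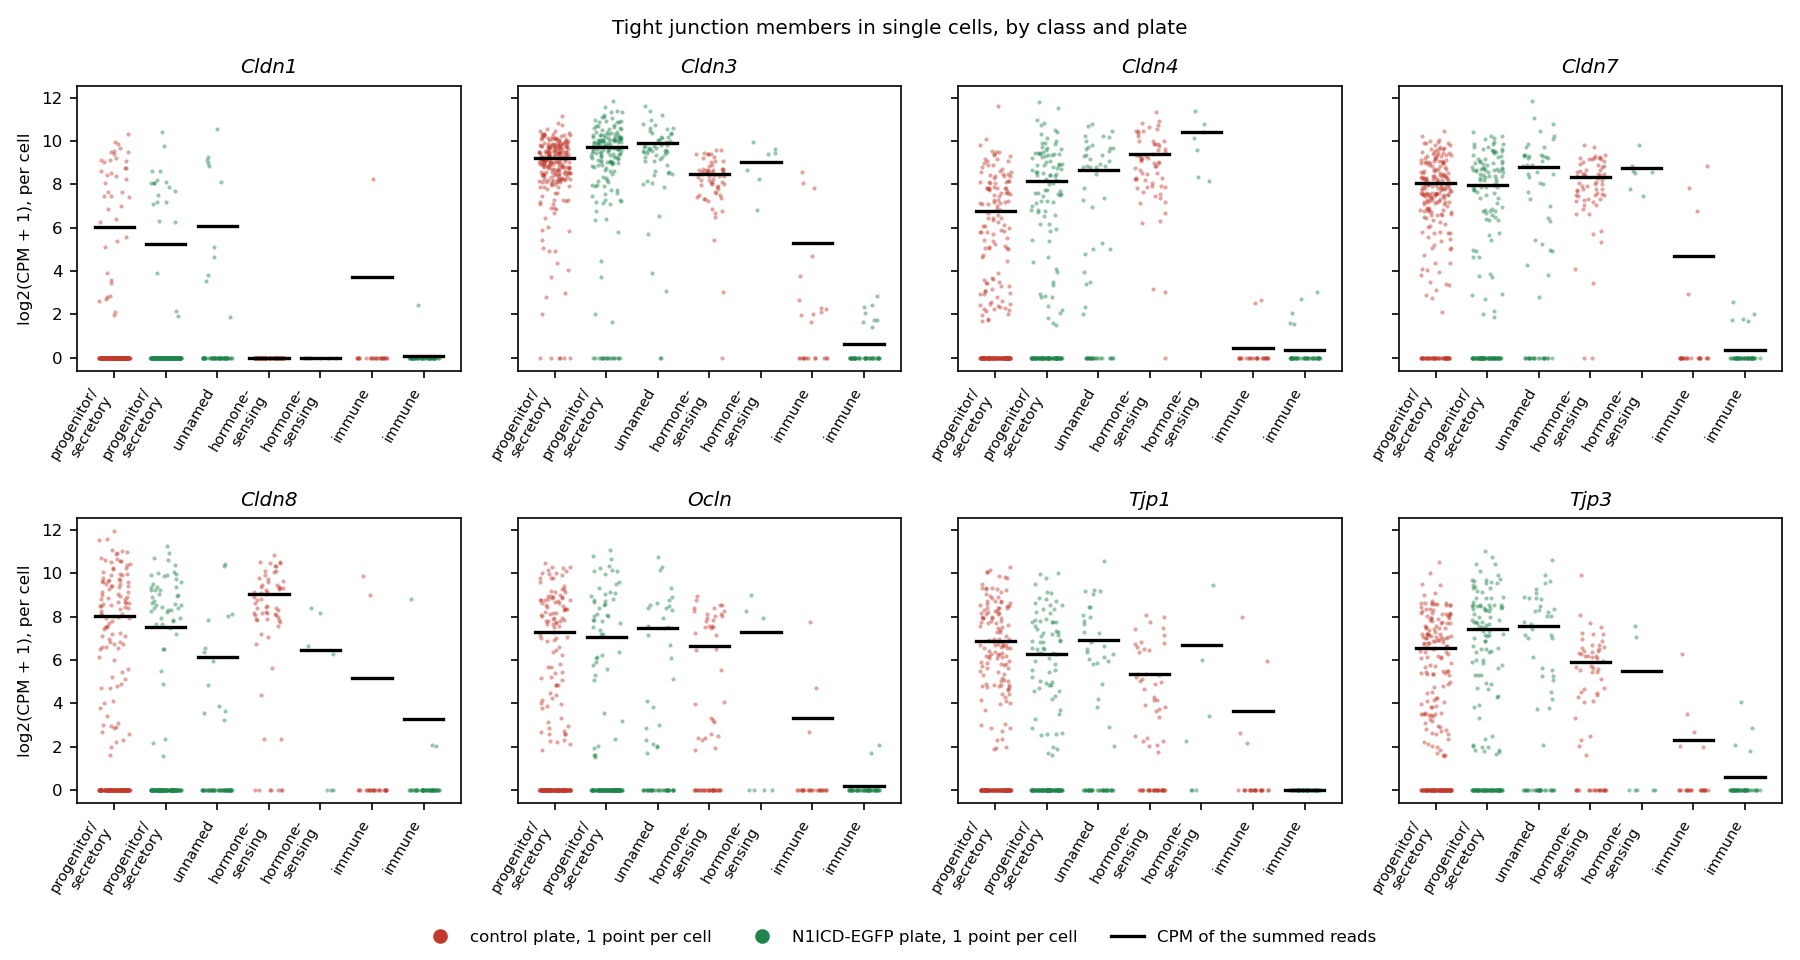
Each point is 1 kept cell, placed by its log2(CPM + 1) for the gene named above the panel, with control cells in red and N1ICD-EGFP cells in green, and each black bar is the CPM of the summed reads of that group. Cldn1 is empty in all 64 and 7 hormone-sensing cells, Cldn4 is highest there, and immune-like cells sit near 0 apart from a few control cells and 1 N1ICD-EGFP cell at 454 CPM of Cldn8.

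Per kilobase of GENCODE exon, Cldn3 was the leading claudin transcript of progenitor/secretory-like cells. This scaling allows for gene length but not for other differences in coverage between genes. On the control plate it made up 56.3% of the 5 claudins' CPM per kb, followed by Cldn7 with 21.2%, Cldn8 with 13.2%, Cldn4 with 7.06% and Cldn1 with 2.30%. Control hormone-sensing cells had another order, with Cldn4 at 33.9%, Cldn3 at 25.9%, Cldn8 at 20.2%, Cldn7 at 20.01% and Cldn1 at 0. Cldn8 and Cldn7 were adjacent in that order and within counting error of each other, at 221.8 and 219.4 CPM per kb. In the N1ICD-EGFP plate's progenitor/secretory-like cells Cldn3 again came first with 61.6%, and Cldn4, at 14.6%, stood above Cldn8, at 7.28%. Its 7 hormone-sensing cells had Cldn4 first with 50.5% and Cldn8 at 2.47%.

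**Figure D2:**
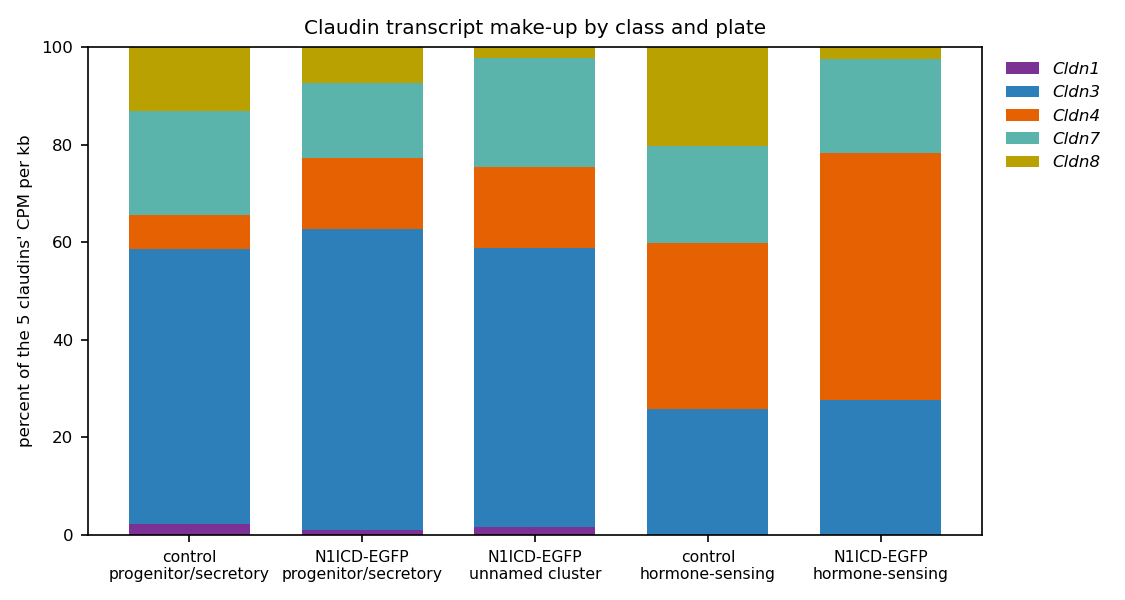
Stacked bars give each claudin's percent of the 5 claudins' CPM per kb of exon in 5 groups of cells. Cldn3 is the largest part in the 3 bars on the left (56.3%, 61.6% and 57.2%), and Cldn4 is the largest in both hormone-sensing bars (33.9% and 50.5%).

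In summed reads, hormone-sensing cells of the control plate carried more Cldn4 and Cldn8 than its progenitor/secretory-like cells. They carried less of the other members except Cldn7. With a size of 1.5 times as the mark, 2 of the 8 members were higher and 5 lower, beside 27.1% of all 11313 genes at 5 CPM or more that were higher, 30.6% that were lower and so 57.7% in either direction. Summed, the 8 members reached 2078 CPM in hormone-sensing and 1674 CPM in progenitor/secretory-like cells. Cells of 1 plate are not replicates, so these are descriptions of the plate.

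Cldn4, a barrier-forming claudin that together with Cldn3 is known as a receptor of Clostridium perfringens enterotoxin, showed the widest contrast among the members read in both classes. It reached 675 CPM (664 to 686) in hormone-sensing cells and 109.2 CPM (106.4 to 112.1) in progenitor/secretory-like cells, 6.18-fold higher. Single hormone-sensing cells ran from 0 to 2611 CPM with a median of 522 CPM, and progenitor/secretory-like cells from 0 to 3154 CPM with a median of 3.63 CPM, so the ranges overlapped while the middles stood apart. After thinning, 98.4% of hormone-sensing and 40.6% of progenitor/secretory-like cells had a Cldn4 read. In well columns 1 to 12 and 13 to 24, taken as 2 parts of the plate, the log2 ratio was 3.13 and 1.95.

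Cldn8, known in the kidney as a claudin that keeps cations from leaking back, reached 523 CPM in hormone-sensing and 264.6 CPM in progenitor/secretory-like cells, 1.97-fold higher. It was read in 89.1% and 41% of cells, with cell medians of 355.5 and 0 CPM. Cldn7, a claudin also found along the lateral membrane and bound there by EpCAM, differed little in sum, at 324.04 and 266.1 CPM, while its share of cells was 95.3% against 76.99%. A higher share was the common case in that comparison: after thinning, hormone-sensing cells had a median of 4475 genes against 2958, and 22.9% of genes had a lower share there.

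Cldn1 and Tjp1 were the 2 members with a lower share in hormone-sensing cells. Cldn1, the claudin whose loss in mice lets water escape through the skin, had no read in any of the 64 cells. A floor of 3 cells or 3 reads is 4.69% of cells and 0.145 CPM, and the exact upper limits are 5.601% and 0.179 CPM, against 63.6 CPM and 15.5% of progenitor/secretory-like cells. The progenitor/secretory-like level was 438-fold the level of 3 reads over the group, a size that treats reads as independent. In that class 9 cells held 50% of the Cldn1 reads, and cells with a read had a median of 231.9 CPM. Counted by cells, the upper limit of 5.601% stands against 15.5%. Tjp1 was at 40.4 against 117.9 CPM, 2.92-fold lower, with a share of 40.6% against 48.1%. By part of the plate, the log2 ratio of Tjp1 was -0.94 (columns 1 to 12) and -2.46 (columns 13 to 24).

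Cldn3 was 1.69-fold lower, at 357.01 against 604 CPM, although nearly every cell of both classes had a read (98.4% and 96.2%). Its highest hormone-sensing cell lay at 773 CPM, and 13.8% of the progenitor/secretory-like cells lay at 1000 CPM or more. Ocln was at 99.3 against 155.8 CPM, and Tjp3 at 59.7 against 92.6 CPM. Both sums were close to the mark, at 1.57-fold and 1.55-fold lower. Counted by cells both went the other way, which was the common case in that comparison. Ocln was read in 43.8% against 38.5% of cells and Tjp3 in 64.1% against 51.5%. Their cell medians were 4.49 against 0 CPM and 38.3 against 10.6 CPM. The lower sums fell short of the mark in 4 and 5 of 17 processing alternatives. Log2 ratios went down to -0.15 for Ocln without possible doublets, which left 31 of the 64 hormone-sensing cells. For Tjp3 the ratio was -0.42 in well columns 1 to 12.

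Genes of the same structure outside the 8 members leaned towards lower levels, though not the claudins among them. Of 48 other tight junction genes at 5 CPM or more, 9 were higher and 22 lower in hormone-sensing cells. Over all genes 27.1% were higher and 30.6% lower. The list had a median log2 ratio of -0.47, beside -0.02 over all genes. Of its 7 measured claudins, 3 were higher and 3 lower. Cldn10, which forms ion pores, was at 327.6 CPM in hormone-sensing cells and 1.34 CPM in progenitor/secretory-like cells, read in 90.6% and 2.09% of cells. Cldn6, a claudin of embryonic epithelia, was at 83.7 CPM, with only 3 reads in the other class. Among the membrane proteins, Lsr, which marks corners where 3 cells meet, was 1.88-fold higher, and the adhesion receptor Cxadr was 5.10-fold lower. Several genes of the cytoplasmic plaque were much lower, with paracingulin (Cgnl1) 8.54-fold, the angiomotin family member Amotl2 8.81-fold and the scaffold Magi3 6.84-fold lower. Adherens junction and desmosome genes had no such lean, with 6 higher and 5 lower of 20 and a median of 0.15. In that list desmoplakin (Dsp) was 3.37-fold higher and plakophilin Pkp1 45.4-fold lower.

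**Figure D3:**
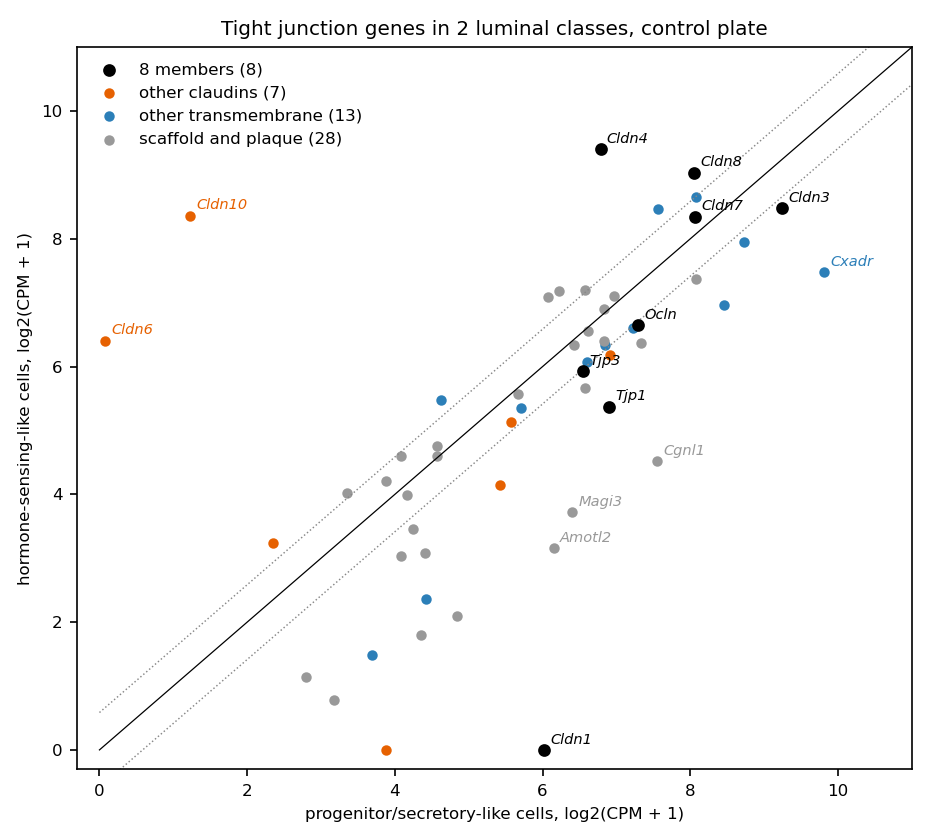
Each point is a tight junction gene of the control plate at 5 CPM or more in either class, with log2(CPM + 1) in progenitor/secretory-like cells across and in hormone-sensing cells upward. The solid line marks equal levels and the dotted lines a 1.5-fold difference. Cldn10, Cldn6 and Cldn4 lie above the lines, and Cldn1, at 0 in hormone-sensing cells, lies below with 13 of the 28 scaffold and plaque genes outside the members, of which 4 lie above.

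The comparison between plates asks how sorted cells of mice with the active Notch1 domain differ from those of reporter-only mice. EGFP reads were not found in every cell of the N1ICD-EGFP plate: 63.7% of its progenitor/secretory-like cells had none. Over all kept cells Tjp3 was higher on the N1ICD-EGFP plate, Cldn8 was lower, and the other 6 members lay within 1.5 times. That made 1 member higher and 1 lower, beside 23.4% of all 12021 genes that were higher and 17.3% that were lower (40.8% together). Cldn8 was at 308.98 CPM on the control plate (305.2 to 312.8) and 128.6 CPM on the N1ICD-EGFP plate (126.3 to 130.8), 2.40-fold lower, read in 47.01% and 21.9% of cells. Tjp3 was at 76.2 and 140.7 CPM, 1.85-fold higher. Both kept this side of the mark in all 15 alternatives run. Cldn3 was at 489 and 708 CPM, a 1.45-fold difference that passed 1.5 times in 4 of the 15, for instance without immune-like cells (log2 ratio 0.72). The remaining members differed by less: Cldn1 at 42.9 and 35.1, Cldn4 at 243.8 and 291.6, Cldn7 at 258.6 and 247.5, Ocln at 127.97 and 117.7, and Tjp1 at 91.9 and 72.3 CPM. Without possible doublets Cldn4 (0.81) and Cldn1 (-0.77) passed the mark. That alternative left out cells with unusually many genes for their plate, and 31 of the 64 control hormone-sensing cells remained. These had a median of 5403.5 genes before it, against 3598 over the plate, so the alternative also changed the class shares. Cldn1 also passed the mark without the 5 cells of each plate with most of its reads (-0.63). In well columns 13 to 24 the Cldn1 log2 ratio was 0.22 in place of -0.28.

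The plates also held different cells, as far as the sort on reporter fluorescence passed them. Hormone-sensing cells made up 19.2% of the kept control cells and 2.47% of the N1ICD-EGFP cells, and immune-like cells 7.19% and 16.96%. Cldn10 and Cldn6, read mainly in hormone-sensing cells, were 17.6-fold and 12.6-fold lower over all cells of the N1ICD-EGFP plate. Within hormone-sensing cells too, 5 of 6 measured claudins outside the members were lower on the N1ICD-EGFP plate and 0 higher. Their median log2 ratio was -0.91, on 7 cells, where 40.9% of 10450 genes were lower and 26.5% higher. The part of the class shares in each value was not tested, and the values of the members within a class follow.

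Within the progenitor/secretory-like class Cldn4 and Tjp3 were higher on the N1ICD-EGFP plate, and Cldn1 and Tjp1 were lower. These were 2 of the 8 members higher and 2 lower, beside 23.5% and 17.3% of 11397 genes (40.8% together). Control clusters 0, 2, 3, 4 and 5 and N1ICD-EGFP clusters 0, 2 and 3 formed the class.

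Cldn4 was at 109.2 CPM on the control plate and 286.3 CPM on the N1ICD-EGFP plate (282.01 to 290.7), 2.62-fold higher. Control cells ran from 0 to 3154 CPM with an upper quartile of 129.7 CPM, and N1ICD-EGFP cells from 0 to 3536 CPM with an upper quartile of 368.1 CPM, so the cells of the plates overlapped over nearly the whole range. The share of cells at 100 CPM or more was 26.8% and 41.7%, and cells with a read had a median of 107.4 and 338.95 CPM. The size of the difference was not even over the plates: it was 4.25-fold in well columns 1 to 12 (87.5 against 371.9 CPM) and 1.51-fold in columns 13 to 24 (134.2 against 202.96 CPM). In every one of the 18 alternatives it remained past 1.5 times higher. Cldn4 was also the single member with a higher share of cells after thinning, 50% against 40.6%, where 83.2% of all genes had a lower share and the median number of genes per cell was 2058 against 2958.

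Tjp3, a ZO protein known mainly from epithelia, was at 92.6 CPM on the control and 170.5 CPM on the N1ICD-EGFP plate, 1.84-fold higher. Its share of cells was alike, 51.5% and 50.6%, and the median of cells with a read was 106.8 and 204.1 CPM. The difference was past 1.5 times in all 18 alternatives, and it was 2.12-fold and 1.57-fold in the well column parts. Tjp3 shares 40 exon bases with Apba3 on the other strand, which was at 39.3 and 40.8 CPM.

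Cldn1 was at 63.6 and 36.4 CPM, 1.75-fold lower, and rested on few cells, since 9 control cells and 4 N1ICD-EGFP cells held 50% of its reads. Its log2 ratio was -0.79. It fell short of the mark with the looser cell filter (-0.51), in well columns 13 to 24 (-0.48) and with the unnamed cluster added (-0.52), and it was -1.41 without the 5 cells of each plate that held the most reads. Tjp1 was at 117.9 and 75.5 CPM, 1.56-fold lower. It too missed the mark in 3 alternatives, with the stricter filter (-0.35), without possible doublets (-0.58) and with the unnamed cluster added (-0.43).

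The 4 other members stayed within 1.5 times but changed in how they were spread over cells. Cldn3 was at 604 and 839 CPM, 1.39-fold apart, with 13.8% of control and 34.5% of N1ICD-EGFP cells at 1000 CPM or more. It shares 40 exon bases with the antisense gene Wbscr25, which was at 9.51 and 24.5 CPM. Cldn7 had nearly equal sums, 266.1 and 246.5 CPM, read in 76.99% and 58.9% of cells, with medians among cells with a read of 227.7 and 334.7 CPM. Fewer cells with more reads each was thus the form for Cldn7, and Ocln was at 155.8 and 130.9 CPM in 38.5% and 26.2% of cells. Cldn8 was 1.43-fold lower, at 264.6 and 185.4 CPM, in 41% and 27.4% of cells, and 8 of 18 alternatives put it past the mark, with log2 ratios down to -0.76. As given above, a lower share was the case for most genes of that plate.

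**Figure D4:**
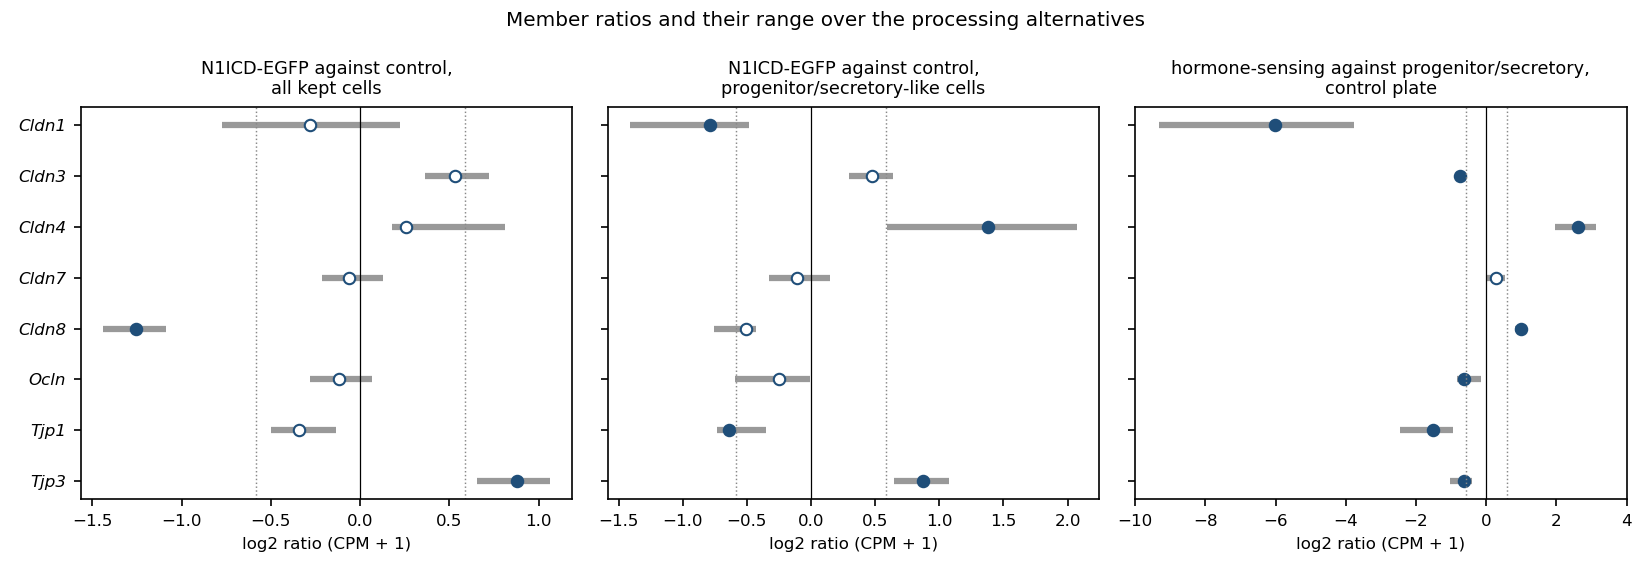
Points give each member's log2 ratio of CPM + 1 in 3 comparisons, filled where the plain ratio was past 1.5 times, and grey bars span the values over all processing alternatives. Dotted lines mark 1.5 times. Cldn8 over all cells, Cldn4 in progenitor/secretory-like cells and Tjp3 in both plate comparisons keep their bars beyond the dotted line; the Cldn1 point of the last panel depends on the pseudocount, since it is at 0 in hormone-sensing cells.

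Markers of other cell types differed between the plates within this class too. Basal markers summed to 82.7 and 369.1 CPM with 9 of 10 higher, endothelial markers to 50.04 and 194.99 CPM with 6 of 6 higher, and immune markers to 45.5 and 152.9 CPM with all 6 measured ones higher. Fibroblast markers summed to 648 and 771 CPM with 3 higher and 2 lower of 6. The median cell of either plate had no basal, endothelial or fibroblast marker read. Without the 13 control and 19 N1ICD-EGFP cells that carried 1000 CPM or more of these markers, the Cldn4 log2 ratio was 1.497 in place of 1.38. Hormone-sensing markers, the class with most Cldn4, summed to 208.2 and 203.2 CPM, with Foxa1 and Cited1 at 0 on the N1ICD-EGFP plate. Luminal progenitor markers summed to 31650 and 9831 CPM, with 1 higher and 4 lower of 10 and a median log2 ratio of -0.25. Secretory markers summed to 18700 and 5197 CPM, with 1 higher and 6 lower of 7 measured. Over all genes 23.5% were higher and 17.3% lower. The part of these markers in the junction values was not tested.

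The other tight junction genes as a list showed no lean in this class. Of 46 measured, 8 were higher and 6 lower, where 23.5% of all genes were higher and 17.3% lower. The median log2 ratio was 0.06, beside 0.10 over all genes. Of its 5 measured claudins 2 were higher and 2 lower, and of 28 plaque genes 4 were higher and 4 lower. Of its 13 other membrane genes 2 were higher and 0 lower. Among the higher ones, Amotl2 was 2.97-fold higher, cingulin (Cgn), which binds ZO proteins, 1.83-fold, Magi1 1.96-fold and Cldn23 1.75-fold. In the adherens junction and desmosome list 4 were higher and 2 lower of 19, with the desmosome genes Perp, Ppl and Pkp1 at 1.81-fold, 1.79-fold and 1.602-fold higher. Transcription factors known to act on epithelial junction genes were listed as activators and repressors. Of 10 measured activators 1 was higher and 1 lower, with a median log2 ratio of 0.07. These were Klf4, 2.76-fold higher (111.8 and 308.9 CPM), and Ehf, 1.87-fold lower (921 and 492 CPM). Of the repressors, Snai2 (0.0189 and 9.60 CPM) and Zeb1 (6.60 and 24 CPM) were higher and Zeb2 (6.56 and 4.34 CPM) lower, each read in at most 4.17% of these cells on either plate.

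Cells of the unnamed N1ICD-EGFP cluster carried more Cldn1, Cldn7 and Tjp1 and less Cldn8 than the progenitor/secretory-like cells of the same plate. Here 3 members were 1.5 times or more higher and 1 lower, beside 25.8% and 28.6% of 11508 genes (54.3% together). Cldn7 was at 439 against 246.5 CPM, Cldn1 at 66.8 against 36.4 CPM and Tjp1 at 121.7 against 75.5 CPM. Cldn8 was at 70.1 against 185.4 CPM, 2.64-fold lower, in 18.3% against 27.4% of cells. The other members lay within 1.5 times, with Cldn3 at 962 against 839, Cldn4 at 405 against 286.3, Tjp3 at 188.2 against 170.5 and Ocln at 175.6 against 130.9 CPM. Desmosome genes were higher there as well: Perp was 12.5-fold higher, at 2619 CPM, and 10 of 20 genes of the adherens junction and desmosome list were higher with 1 lower.

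The 7 hormone-sensing cells of the N1ICD-EGFP plate all had Cldn4 reads, at high levels. Their single-cell Cldn4 values were 281.6, 322.8, 779, 1117, 1392, 1750 and 2682 CPM. The highest lay just above the highest control cell of that class (2611 CPM), and the other 6 lay inside its range. The sum was 1390 CPM against 675 CPM on the control plate, 2.06-fold higher. Cldn8 had reads in 4 of the 7, with a highest cell of 340.8 CPM, and summed to 88.3 CPM against 523 CPM, 5.92-fold lower. Tjp1 was at 101.6 against 40.4 CPM, and that sum rested on 1 cell at 711 CPM where the next stood at 62.96 CPM. Ocln was at 154.6 against 99.3 CPM with reads in 3 cells. Thus 3 members were higher and 1 lower by 1.5 times, beside 26.5% and 40.9% of 10450 genes (67.4% together), on a group of 7 cells with a median of 417390 reads and no EGFP read in any of them.

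Against the progenitor/secretory-like cells of their own plate, these 7 cells had Cldn4 4.86-fold and Cldn7 1.76-fold higher, and Cldn3 1.58-fold, Cldn8 2.10-fold and Tjp3 3.82-fold lower. Cldn1 had no read in the 7 cells and reads in 10.1% of the progenitor/secretory-like cells, a difference not detectable with 7 cells. With Cldn1 counted as lower, that was 2 members higher and 4 lower, beside 28% and 47.5% of 11382 genes (75.5% together).

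Members also differed between clusters inside the progenitor/secretory-like class, given here as the highest against the lowest cluster. Cldn1 ran from 21.2 CPM in cluster 4 to 129.9 CPM in cluster 2 of the control plate, a ratio of 6.14. After thinning, 10.8% and 32.3% of the cells of these clusters had a Cldn1 read. Cldn4 ran from 50.2 to 229.2 CPM on that plate, a ratio of 4.56. Cldn3 and Tjp1 were the most even there, with ratios of 1.59 and 1.58. Among the 3 N1ICD-EGFP clusters Cldn4 ran from 177.4 to 428 CPM, Tjp1 from 46.7 to 127.1 CPM and Tjp3 from 148.9 to 194.05 CPM. For Tjp3 every N1ICD-EGFP cluster of the class lay above every control cluster, whose highest was 123.8 CPM. Cldn4 overlapped, since the highest control cluster (229.2 CPM) lay above the lowest N1ICD-EGFP cluster. The share of all genes whose clusters separated by plate as for Tjp3 was not computed. Clusters of the same plate are not replicates, so the separation for Tjp3 only describes these plates.

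**Figure D5:**
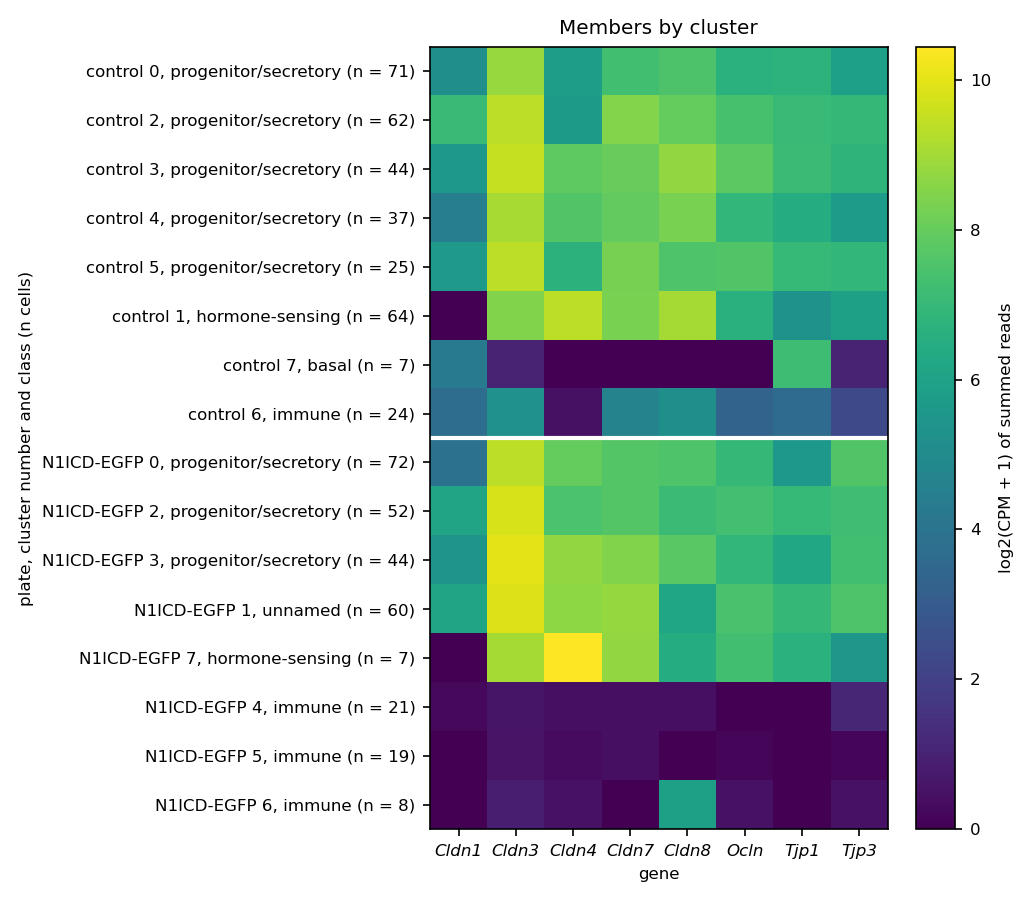
Colour gives log2(CPM + 1) of the summed reads of each gene in each cluster, with control clusters above the white line and N1ICD-EGFP clusters below it. Cldn3 is high in all luminal clusters, Cldn1 is dark in both hormone-sensing clusters, and Tjp1 is the main member of the basal cluster.

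Within the progenitor/secretory-like cells of the N1ICD-EGFP plate, 32.1% had 5 or more EGFP reads and 63.7% had none. Cldn4 was at 351.7 CPM in the former and 249.8 CPM in the latter, Cldn3 at 955 and 782 CPM, and Tjp3 at 207.7 and 155.5 CPM. Cldn1 was the only member past 1.5 times, 1.79-fold lower at 22.6 against 40.5 CPM, beside 20.9% of 11457 genes higher and 31% lower, and its share of cells went the other way (12.96% and 6.54%). All 8 members had a higher share in the cells with EGFP reads, as did 71.6% of the 11457 genes. Those cells had a median of 2292 genes after thinning, against 1946 in the cells without, and their median depth was 408920.5 reads before thinning, against 326740 in the others.

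Members were seldom read in step. Over the 28 pairs of members, Spearman correlations across progenitor/secretory-like cells, thinned to 50000 reads, ran from -0.04 to 0.28 on the control plate (median 0.09) and from -0.07 to 0.36 on the N1ICD-EGFP plate (median 0.06). The highest was Cldn3 with Cldn7 on the former and Cldn3 with Cldn4 on the latter. Correlations with summed casein reads lay between -0.19 and 0.06 on the control plate and between -0.10 and 0.16 on the N1ICD-EGFP plate. The members at the outer ends changed sign between plates, with Ocln at -0.19 and 0.11 and Cldn4 at -0.12 and 0.16. Such values in sparse counts are weak, and cells of 1 library share depth and chemistry. Among 4057 genes read in at least 20% of cells on both plates, the 1 closest to Cldn3 and also to Cldn7 was the luminal keratin Krt8, with mean correlations of 0.34 and 0.34. Cd24a was closest to Cldn4 (0.27), Ltf to Cldn8 (0.29), Rab25 to Tjp3 (0.28), Apoa1bp to Ocln (0.24) and Nsmce2 to Tjp1 (0.21). The members' correlations with the number of genes per cell ran from 0.05 (Cldn3, control) to 0.29 (Cldn8, N1ICD-EGFP). The part of that number in the likeness was not tested. Cells with reads of Cldn3, Cldn4 and Cldn7 together made up 30.96% of control and 33.3% of N1ICD-EGFP progenitor/secretory-like cells, and 93.8% (60 of 64) and 100% (7 of 7) of hormone-sensing cells.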

How the data were processed

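The authors deposited 1 table of raw counts for each plate of Smart-Seq2 libraries, with a row for each gene and a column for each well. Reads were aligned with STAR to mm10, per the submitters' processing notes. A STAR version, counting tool, annotation or strand setting was not given in the sources used here. In all, 24490 rows held 492 repeated names, whose counts were summed per name, leaving 23997 names beside the EGFP row, and all 768 columns matched a label. The cell filter of 50000 reads and 1000 genes kept 334 control and 283 N1ICD-EGFP wells of 384 each, of which 239 and 168 were progenitor/secretory-like. Wells were sorted to hold 1 cell, so no doublet caller was run. An alternative left out 67 possible doublets, meaning cells with a gene number far above the median of their plate.

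Reads were summed by class and divided by the class total (CPM). Log2 ratios used a pseudocount of 1 CPM, and folds are plain ratios. A difference was marked at 1.5 times, and list genes needed 5 CPM in either group. A fold against 0 used 3 reads over the group. Shares of cells were taken after thinning to 50000 reads. Smart-Seq2 reads carry no molecular identifiers, so intervals and floors cover counting error only.

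Each plate was clustered with scanpy 1.11.5 and leidenalg 0.10.2 (2000 variable genes, 15 components, 15 neighbours, resolution 0.8, seed 0) without the junction lists. A cluster took the name of the class with the most raised markers (3 or more), raised meaning read in 20% of its cells and 1 log2 unit above the mean of clusters. It stayed unnamed where another class had more markers among its 10 leading genes, which applied to N1ICD-EGFP cluster 1 with Krt14. Gene models are from GENCODE vM21 and promoters from RefSeq (GRCm38.p6). Named list genes are up to 6 in each direction with the largest log2 ratios among members at 20 CPM or more and read in 20% of cells of the higher group. The procedure was tested on simulated data. The members, lists and rules were chosen with earlier results of these data known.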

Additional observations from a re-analysis of the deposited data

Results flagged for a closer look

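For 3 members the summed level of hormone-sensing cells lay on opposite sides of that of progenitor/secretory-like cells in the 2 plates. This difference was not tested, because each plate is 1 sample and the N1ICD-EGFP plate held 7 hormone-sensing cells. Cldn8 had a log2 ratio of 0.98 on the control plate and -1.06 on the N1ICD-EGFP plate. For Ocln the ratios were -0.65 and 0.24. Tjp1 had -1.52 and 0.42, and on the N1ICD-EGFP plate 1 cell at 711 CPM carried most of the sum.

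Reads of the members also appeared in wells that the cell filter left out. The 8 members summed to 717.6 CPM over such control wells and to 251.9 CPM over such N1ICD-EGFP wells, above the 2.23 and 1.90 CPM that 3 reads would give, and below the 1639 and 1742 CPM of the kept cells.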

How the results depend on the processing

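No paired analysis was possible because each genotype has 1 plate and no test was run. Of 400 member ratios under 15 to 18 alternatives per comparison, none that was past 1.5 times changed sign, and 51.2% moved beyond the counting interval of the reported value. Over all cells, the members higher numbered 2 in place of 1 with the stricter cell filter, without possible doublets, in well columns 1 to 12, without immune-like cells and, added after seeing the data, in luminal clusters only; those lower numbered 2 in place of 1 without possible doublets. The other tight junction genes higher over all cells numbered 11, 12, 11 and 11 in place of 7 with the stricter filter, in columns 1 to 12, without immune-like cells and in luminal clusters only, and those lower 14 in place of 9 in columns 13 to 24 and 19 with no filter on level. In progenitor/secretory-like cells 1 member in place of 2 was lower without possible doublets and with the unnamed cluster added. There 15 list genes in place of 8 were higher in columns 1 to 12, and 11, 10 and 16 in place of 6 were lower in columns 13 to 24, at 1 CPM or more and with no filter. For hormone-sensing cells, 3 members in place of 5 were lower with per-cell means, after thinning and in columns 1 to 12, and the list median passed 1.5 times at -0.60 with per-cell means and -0.60 in columns 1 to 12. The causes were not tested. Trimmed-mean scaling moved all ratios by at most 0.05 (log2). Left-out possible doublets numbered 67, which left 31 of 64 hormone-sensing control cells. With 1 plate per genotype no replicate could be left out. Of 32 shares of cells without thinning or at 2 reads, 7 left their counting interval.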
